A study of Mus musculus with 12 samples.

Results

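Resting T cells are held quiet by a small set of transcription factors, and 8 of them were followed here in regulatory T cells (Tregs) of mice: Id3, Id2, Tcf7, Lef1, Bach2, Satb1, Foxo1 and Bcl6. Id2 was included as the counterpart of Id3 in effector cells. The genes were taken by symbol, and all 8 of the 24421 rows measured were found in each of the 4 tables of the series. RNA sequencing had been done on sorted Tregs, the T cells that express Foxp3 and dampen immunity, of two-TCR retrogenic mice on the NOD background, at an age of 6.8 weeks. NOD mice develop autoimmune diabetes, and retrogenic mice get T cell receptor (TCR) genes through bone marrow into which these have been introduced. Every Treg group carried a TCR against insulin, 4-8 of high affinity or 12-4.4m1 of low affinity, and came from pancreatic islets or from spleen. This gave 4 groups of 3 libraries, 12 in all: islet 4-8, islet 12-4.4m1, spleen 4-8 and spleen 12-4.4m1. Each affinity was represented by 1 TCR, so affinity and the other properties of a receptor cannot be told apart, and the labels do not say which libraries came from which mouse.

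The 8 factors work at several points of the same program. ID proteins lack a DNA-binding region and tie up the E proteins, which bind short DNA motifs called E-boxes. Id3 is the main ID protein of naive and resting central Tregs, while Id2 rises in effector Tregs of tissues. TCF-1, the product of Tcf7, and LEF-1 are paired HMG-box factors that use β-catenin and Groucho corepressors and that mark naive and memory T cells. BACH2 represses effector genes at sites it shares with AP-1, BCL6 is a zinc finger repressor of follicular and central cells that opposes Blimp-1 (Prdm1), and SATB1 organises chromatin and is kept low in mature Tregs. FOXO1 acts in resting cells and leaves the nucleus after TCR signalling, so its activity depends on more than its mRNA.

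In GENCODE on GRCm38, Id3 lies at chr4:136143497-136145755 and Id2 at chr12:25093799-25097140. Tcf7 lies at chr11:52252371-52283014 and Lef1 at chr3:131110471-131224356. Bach2 lies at chr4:32238804-32586108, Satb1 at chr17:51736187-51833290, Foxo1 at chr3:52268336-52353221 and Bcl6 at chr16:23965052-23988852. All 8 are protein coding; Id2, Tcf7, Satb1 and Bcl6 are on the minus strand. Annotated antisense transcripts share exon bases with Lef1 (Gm43352, 1208 bases), Bach2 (Bach2os, 537 bases) and Foxo1 (Gm20402, 674 bases). The sources used here do not say whether strand was recorded, so reads of these pairs could not be told apart.

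DNA before an annotated start is shown for 3 genes that passed as higher in islets: Id2 for 4-8, and Satb1 and Bcl6 for 12-4.4m1. The sequences are from RefSeq promoters on GRCm38, minus strand, 5′ to 3′, and end at the outermost annotated start of Satb1 and Bcl6. The Id2 stretch lies before the RefSeq start and inside the longer gene of GENCODE, between its exons; the rest of the Id2 window, which annotated exons reach, is left out. Capitals mark an E-box in Id2 (CAGCTG) and a match to the site class of STAT factors and BCL6 in Bcl6 (TTCNNNGAA).
Id2, chr12:25096254-25096342: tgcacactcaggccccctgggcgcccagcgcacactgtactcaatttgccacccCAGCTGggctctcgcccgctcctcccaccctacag
Satb1, chr17:51833291-51833540: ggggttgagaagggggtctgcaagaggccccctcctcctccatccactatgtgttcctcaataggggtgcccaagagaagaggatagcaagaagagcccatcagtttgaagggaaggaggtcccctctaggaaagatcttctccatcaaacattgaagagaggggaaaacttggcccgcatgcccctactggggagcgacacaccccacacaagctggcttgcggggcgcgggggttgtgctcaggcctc
Bcl6, chr16:23988853-23989102: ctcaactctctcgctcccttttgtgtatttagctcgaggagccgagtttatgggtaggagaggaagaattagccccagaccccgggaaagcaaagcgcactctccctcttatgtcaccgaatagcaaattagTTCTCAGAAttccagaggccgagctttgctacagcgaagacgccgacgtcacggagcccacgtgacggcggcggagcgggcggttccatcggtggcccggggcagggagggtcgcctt
On either strand, CAGCTG was found in 13% of 32851 RefSeq windows of 250 bases and TTCNNNGAA in 7.02%. The Satb1 window shown held none of the 8 motifs searched. These were CAGGTG and CAGCTG (E-boxes), CTTTGAT (TCF/LEF), TGTTTAC (FOXO), TGANTCA (AP-1 and BACH2), TTCNNNGAA, GCGTGGGCG (EGR) and the heat shock element. The window at the inner start of Bcl6 held 3 further matches to TTCNNNGAA, and 1 inner window of Satb1 held a match to each E-box. A match is a match of letters only.

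The label of the cells was checked first. Foxp3 had rlog means of 9.15 to 9.87 in all groups and comparisons and passed no test. An rlog value is a normalized count on a log2 scale, drawn towards the gene's mean where counts are low, so differences of genes with low counts are understated. Markers of other lineages were low: the 12 myeloid and dendritic genes summed to 27.4 to 62.0 normalized units per library, against 6487 to 12270.3 for the 9 Treg and CD4 genes, and Pax5 and Ebf1 were at 0. B cell sums of 326 to 1136 came mainly from Cd74, with mean normalized counts of 502 to 818, while that of Cd79a was below 1 in all 4 tables. Other gene groups also differed between islet and spleen libraries: heat shock and dissociation genes passed as higher in 12 of 12 for 4-8 and in 13 of 13 for 12-4.4m1, and 4 of 6 tested pancreas genes passed as higher for each. In the tissue tables, sums of the 13 heat shock genes were 5231 to 6737 in islets and 1408 to 1622 in spleen. Their part in the tissue differences below was not tested. In bulk RNA, fewer cells that express a gene and less RNA per cell cannot be told apart.

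The islet libraries also fell apart by the way their titles are written. Replicates 1 and 2 of 12-4.4m1 and replicate 2 of 4-8 carry "Treg" in the title; the other 3 islet libraries, like all spleen libraries, carry "R". In the islet table the female-specific RNA Xist was 9.39 to 10.48 in the former and 6.51 to 7.50 in the latter. The "R" title did not go with low Xist in spleen. There, Xist was 7.33, 8.39 and 9.46 in 4-8 replicates 1 to 3. In 12-4.4m1 spleen it was 8.70, 10.92 and 10.74, so Xist also leaned by TCR in the spleen table. The labels do not say what the 2 styles stand for. Several of the 8 genes followed this split within 12-4.4m1 islets, where replicate 3 stood apart, and values are given with and without it. Replicate 3 was singled out by the values of these same genes, so fits without it are descriptions and no independent support. In 4-8 islets, the "Treg" library lay between the "R" libraries for Id3 and Id2. That library was the highest for Tcf7, as in 12-4.4m1, and for Satb1, where 12-4.4m1 went the other way. One islet 4-8 column in the islet table is named in the "R" style with the number 2, and no title has that name. Replicate 2 of islet 4-8 is the library with "Treg" in its title, so this column is called unnumbered.

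Per length, the 8 genes covered more than 2 orders of magnitude. The authors' FPKM, fragments scaled by gene length and library size with 1 value per group and no spread, put Id2 highest in all 4 groups, from 381.4 in 4-8 spleen to 585.1 in 4-8 islets. Lef1 was next in all 4, at 56.9 to 96.2, and Foxo1 had the narrowest range, 46.6 to 57.9. Bach2 was lowest in 3 of the 4 groups and Bcl6 in 4-8 spleen, where Bcl6 (3.11), Tcf7 (3.45) and Bach2 (3.78) were close. Id3 was the third highest in both spleen groups, at 73.9 for 4-8 and 65.8 for 12-4.4m1. In islets its place was the fifth for 12-4.4m1 (32.5) and the sixth for 4-8 (5.20). Tcf7 stood at 2.20 to 4.16 in 3 groups and at 22.7 in 12-4.4m1 islets.

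**Figure D1:**
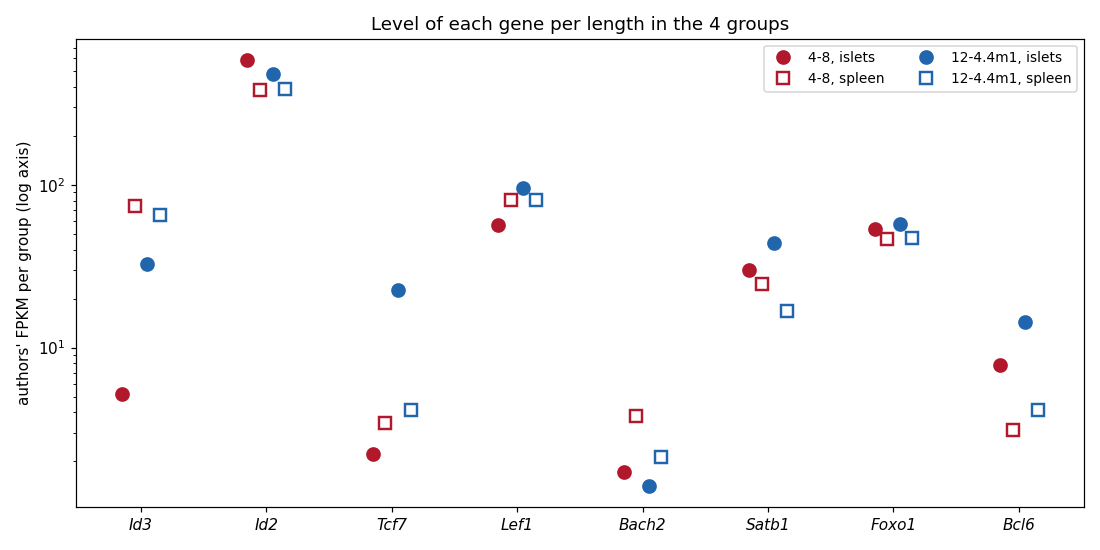
The authors' FPKM of each gene (vertical axis, log scale) in the 4 groups, from the tissue tables, with 1 point per group and no error; filled circles are islets, open squares spleen. Id3 spans 5.20 to 73.9 and Tcf7 2.20 to 22.7, while Lef1, Foxo1 and Id2 stay within a narrow band.

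Between islets and spleen, the clearest change was a fall of Id3 in 4-8 Tregs, together with a smaller rise of Id2. In 12-4.4m1 Tregs, Satb1 and Bcl6 rose in islets. So 2 of 8 genes passed an adjusted p of 0.05 for each TCR (limma on rlog values), against 7.98% of 8981 genes tested for 4-8 and 6.81% of 8438 for 12-4.4m1. For 12-4.4m1, 0 of the 8 passed as lower, where 2.18% of all genes tested did. Groups did not overlap for 3 of 8 genes in 4-8, where 27.4% of all genes tested did not, and for 2 of 8 in 12-4.4m1, where 24.1% did not. The median difference of the 8 was -0.00 for 4-8 and 0.21 for 12-4.4m1, against -0.01 and -0.00 over all genes tested. Between the TCRs, 0 of 8 passed in islets (0.365% of 8212 genes passed) and 0 of 8 in spleen (0.428% of 9108). At an unadjusted p under 0.05 the counts were 3 of 8 in islets (Id3, Tcf7 and Lef1) and 2 of 8 in spleen (Bach2 and Satb1), where 6.78% and 7.93% of all genes tested reached it. Between the tissues they were 4 of 8 for 4-8 (22.2% of all genes tested) and 4 of 8 for 12-4.4m1 (20.3%).

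The authors' deposited tables gave similar counts. Their DESeq2 results called 2 of 8 for 4-8 tissue (Id3 and Id2; 6.76% of all genes tested), 1 for 12-4.4m1 tissue (Satb1; 4.72%), and 0 between the TCRs in islets (0.353%) and spleen (0.231%). Their Cuffdiff results called Id3 and Id2 for 4-8 tissue, where 15.7% of all genes that Cuffdiff tested were called. They called Tcf7, Satb1 and Bcl6 for 12-4.4m1 tissue (14.4%), and 0 of the genes in islets (0.945%) and spleen (1.15%). Not all 8 genes were tested by Cuffdiff. It left out Bach2 in every comparison, Tcf7 for 4-8 tissue and in spleen, and Bcl6 in spleen.

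**Figure D2:**
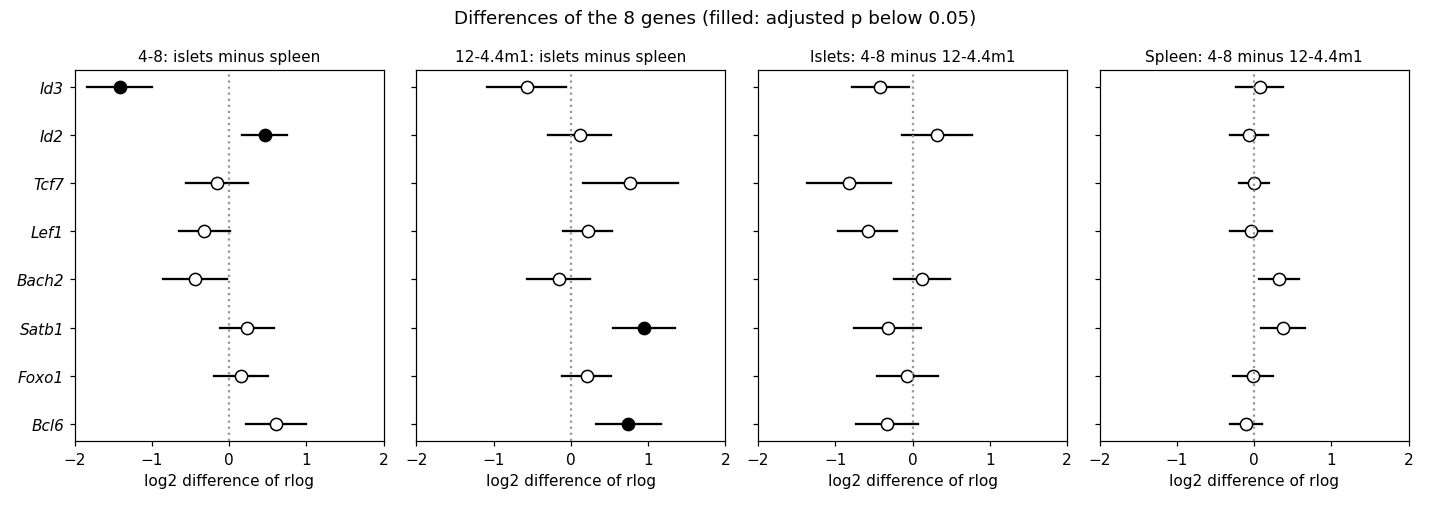
Log2 difference of rlog values (horizontal axis) of the 8 genes in the 4 comparisons, with 95% confidence intervals of the fit; filled points passed an adjusted p of 0.05. The passing genes are Id3 (-1.42) and Id2 (0.46) for 4-8 tissue, and Satb1 (0.95) and Bcl6 (0.75) for 12-4.4m1 tissue.

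Id3 was examined first. In 4-8 spleen its rlog values were 6.03, 5.31 and 5.68 in replicates 1 to 3, and in 4-8 islets they were 4.36, 4.30 and 4.11. Every islet library lay below every spleen library. The difference was -1.42 ± 0.20 (SE, 3 against 3 libraries; limma, adjusted p = 0.000173). The authors' deposited DESeq2 table gave -2.80 (adjusted p = 2.46e-07), and their FPKM was 14.2 times higher in spleen. In 12-4.4m1, spleen values were 5.27, 5.16 and 5.63, and islet values were 5.22, 5.09 and 4.02. Islet replicate 1 lay within the spleen range, replicate 2 just below it, and replicate 3 well below it. The difference of -0.57 ± 0.25 did not pass (limma, adjusted p = 0.177). Its size rested on replicate 3: without that library it was -0.19 (adjusted p = 0.649), and with the title style as a term, which sets replicate 3 alone against spleen, it was -1.33. The latter describes 1 library and is no tissue call. Whether the tissue effects of the TCRs differ was not tested, since the tables were normalized separately.

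Id2 moved the other way. In 4-8 its values were 9.14, 9.31 and 9.35 in spleen and 9.64, 9.66 and 9.88 in islets, so the groups did not overlap. The rise of 0.46 ± 0.14 passed narrowly (limma, adjusted p = 0.0496; DESeq2 0.0299 and Cuffdiff q 0.0124 in the authors' deposited tables). It no longer passed without islet replicate 1 (adjusted p = 0.0776), islet replicate 3 (0.110), or spleen replicates 1 (0.242), 2 (0.137) or 3 (0.137). In 12-4.4m1, spleen values were 8.65, 8.85 and 8.93, and islet values were 8.68 and 8.50 in replicates 1 and 2 and 9.60 in replicate 3, the highest of all 6. The difference was 0.12 ± 0.20 (limma, adjusted p = 0.807), -0.22 without replicate 3 (adjusted p = 0.428), and 0.79 for replicate 3 alone against spleen (title style as a term).

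Within a library, the gap is the rlog value of Id2 minus that of Id3. It is no count ratio, since rlog shrinks the low Id3 counts by an amount that differs between tables, so gaps are compared only within a table. In the 4-8 table it was 3.11 to 4.00 in spleen and 5.29 to 5.77 in islets. In the 12-4.4m1 table it was 3.31 to 3.69 in spleen and 3.45, 3.41 and 5.58 in islet replicates 1 to 3. In the table of both islet groups it was 5.71 to 6.12 in 4-8, 4.62 and 4.51 in 12-4.4m1 replicates 1 and 2, and 6.35 in replicate 3. The gap of replicate 3 thus lay beyond the 4-8 islets and those of replicates 1 and 2 below them. Per length, the authors' FPKM of Id2 was 113 times that of Id3 in 4-8 islets, 14.8 times in 12-4.4m1 islets, and 5.16 and 5.88 times in the spleen groups.

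No E protein gene that was tested passed in any comparison. Of 5 listed genes, 2 were tested: Tcf3 (E2A) differed between islets and spleen by 0.43 ± 0.22 for 4-8 and 0.05 ± 0.18 for 12-4.4m1, and Tcf12 (HEB) by -0.24 ± 0.19 and 0.02 ± 0.19. The other 3, the E protein gene Tcf4 and the ID protein genes Id1 and Id4, were below the filter.

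**Figure D3:**
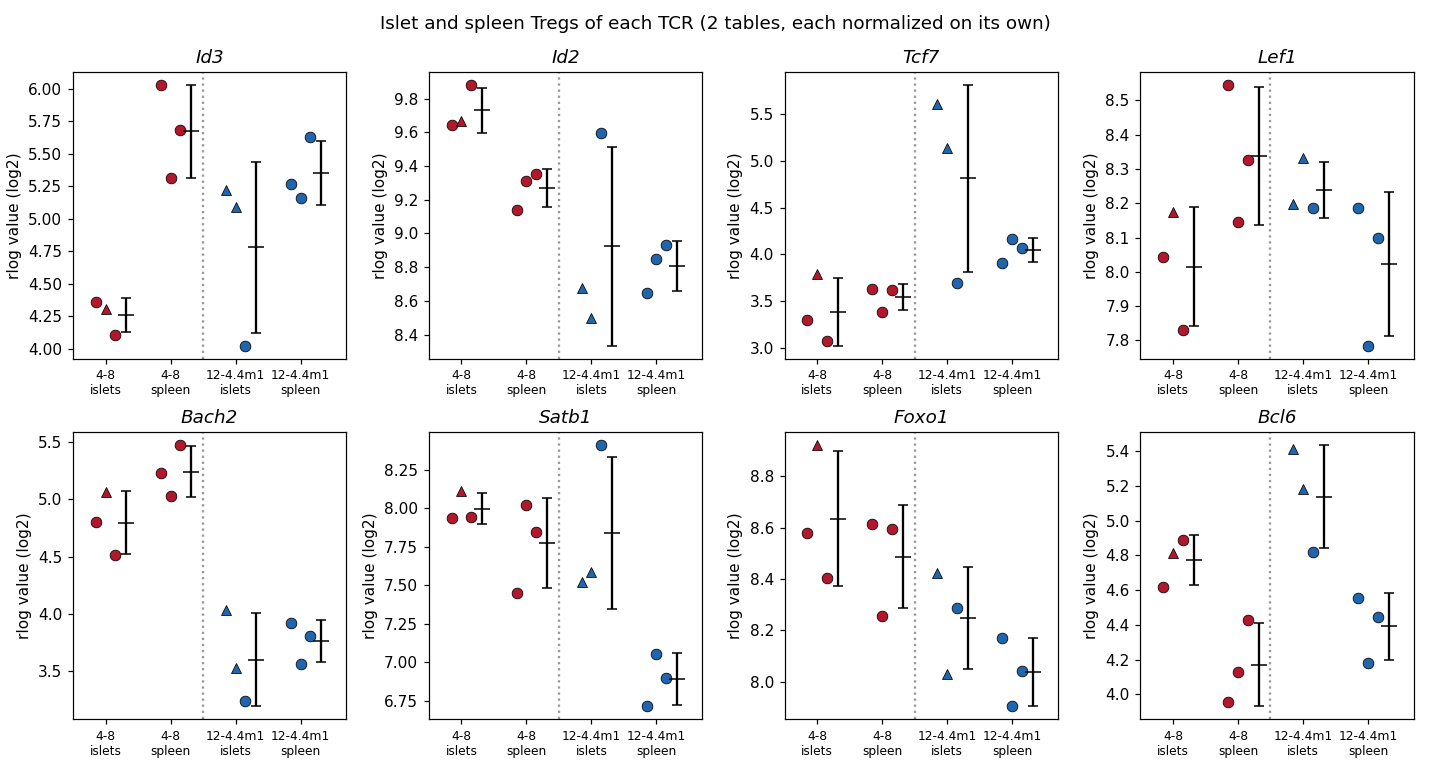
The rlog value (log2, vertical axis) of each gene in every library of the tissue tables, by TCR and tissue; triangles are libraries with "Treg" in the title, circles those with "R", and bars the mean ± SD of 3 libraries. Id3 separates islets from spleen for 4-8, and in 12-4.4m1 islets the circle lies apart from both triangles for Id3, Id2, Tcf7 and Satb1.

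Tcf7 in 12-4.4m1 islets was 5.61, 5.14 and 3.69 in replicates 1 to 3, against 3.91, 4.16 and 4.07 in spleen. Replicates 1 and 2 lay above all spleen libraries and replicate 3 below them. The mean difference of 0.77 ± 0.30 did not pass (limma, adjusted p = 0.134). Without replicate 3 it was 1.33 (adjusted p = 0.000126), and for replicate 3 alone against spleen (title style as a term) it was -0.36, so its direction rested on which islet libraries were used. The authors' FPKM was 5.47 times higher in islets (Cuffdiff q = 0.0150), and their DESeq2 adjusted p was 0.0505. In 4-8, Tcf7 was low throughout, 3.38 to 3.63 in spleen and 3.08 to 3.79 in islets, with a difference of -0.16 ± 0.19 (limma, adjusted p = 0.682).

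Lef1 was 8.55, 8.14 and 8.33 in 4-8 spleen and 8.04, 8.17 and 7.83 in 4-8 islets, which overlapped. The difference of -0.32 ± 0.16 did not pass (limma, adjusted p = 0.243). For 12-4.4m1 it was 0.22 ± 0.15 (adjusted p = 0.470). Across the 6 libraries of a table, Lef1 and Tcf7 had a Pearson r of 0.765 in the 4-8 tissue table, 0.684 in the islet table, 0.366 in the 12-4.4m1 tissue table and -0.05 in spleen, given as descriptions.

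Among their cofactors and targets, Myb, a regulator of progenitor and central T cells, rose in 12-4.4m1 islets by 0.71 ± 0.21 (limma, adjusted p = 0.0357). It was the only one of 7 tested genes to pass there, and 0 of 7 passed for 4-8, where Myb differed by 0.71 ± 0.25 (adjusted p = 0.0963). Axin2, a standard readout of β-catenin with TCF/LEF, differed by -0.53 ± 0.21 for 4-8 and -0.51 ± 0.19 for 12-4.4m1, and neither passed (adjusted p = 0.137 and 0.121).

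Bach2 passed in no comparison. Its values were 5.23, 5.03 and 5.47 in 4-8 spleen and 4.80, 5.07 and 4.52 in 4-8 islets, a difference of -0.45 ± 0.20 (limma, adjusted p = 0.188). In 12-4.4m1 they were 3.92, 3.56 and 3.81 in spleen and 4.04, 3.53 and 3.24 in islets, and the difference was -0.16 ± 0.20. Its mean normalized counts, 13.6 to 36.8, are near the low end of the genes tested, where the rlog scale shrinks differences most.

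Bcl6 was higher in islets for both TCRs, with groups that did not overlap in either. In 12-4.4m1 it was 4.55, 4.18 and 4.44 in spleen and 5.41, 5.18 and 4.82 in islets, a rise of 0.75 ± 0.20 (limma, adjusted p = 0.0233). Without islet replicate 3 the rise was 0.90 (adjusted p = 0.00672). The call ended without islet replicate 1 (adjusted p = 0.0985) or 2 (0.0568), without spleen replicate 1 (0.0546), 2 (0.161) or 3 (0.0553), and with the title style as a term (0.43, adjusted p = 0.367). In the authors' deposited tables Bcl6 had a DESeq2 adjusted p of 0.0685, a Cuffdiff q of 0.0231 and an FPKM 3.46 times higher in islets. In 4-8 it was 3.96, 4.13 and 4.43 in spleen and 4.62, 4.82 and 4.89 in islets, and 0.60 ± 0.18 just missed the threshold (limma, adjusted p = 0.0538).

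Genes that BACH2 or BCL6 are known to repress were next. In islets, 3 of 8 tested passed as higher for 4-8 and 3 of 7 for 12-4.4m1, and 0 passed as lower; 5.14% and 4.63% of all genes tested passed as higher. They were Ccr8, a chemokine receptor of tissue Tregs (2.30 ± 0.19 and 1.88 ± 0.24), Tbx21, which encodes T-bet (1.24 ± 0.21 and 1.22 ± 0.19), and Prdm1 (0.88 ± 0.17 and 0.75 ± 0.16). The list had no common direction for 4-8, where 4 differences were positive and 4 negative, with a median of 0.04. For 12-4.4m1, 5 were positive and 2 negative, with a median of 0.40. Prdm1 and Bcl6 usually oppose each other. Both had higher means in islets, but Bcl6 did not pass for 4-8. Its call for 12-4.4m1 was lost in 7 of 14 alternative fits and tables. Among 8 tested partners of BACH2 and BCL6 (small MAF proteins, corepressors and relatives), 0 passed for either TCR.

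Satb1 rose in islets for 12-4.4m1, whichever library was left out. Its values were 6.72, 7.05 and 6.90 in spleen and 7.52, 7.58 and 8.41 in islets. Every islet library was above every spleen library, and replicate 3 was the highest. The rise was 0.95 ± 0.20 (limma, adjusted p = 0.00267), and it passed in all 15 alternative fits and tables, at 0.66 to 1.52, with 0.66 without replicate 3 (adjusted p = 0.0126). The authors' FPKM was 43.9 in islets and 16.9 in spleen. In 4-8 the spleen values of 7.45, 8.02 and 7.85 overlapped islet values of 7.94, 8.11 and 7.94, and 0.23 ± 0.17 did not pass (limma, adjusted p = 0.465).

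Foxo1 mRNA showed no change that passed. In 4-8 it was 8.25 to 8.61 in spleen and 8.41 to 8.92 in islets (0.15 ± 0.16, 95% confidence interval -0.20 to 0.50). In 12-4.4m1 it was 7.91 to 8.17 and 8.03 to 8.42 (0.21 ± 0.15, interval -0.11 to 0.53). Both intervals include the size of the Id2 difference in 4-8.

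Genes on the list of the FOXO family and its known targets moved in both directions. In 4-8 islets 5 of 13 passed as lower and 2 as higher, where 2.84% and 5.14% of all genes tested did. Among the lower genes were Il7r, the IL-7 receptor (-1.48 ± 0.18), S1pr1, which lets cells leave tissue (-1.07 ± 0.19), Klf2, its activator (-0.76 ± 0.20), and Pik3ip1 (-0.63 ± 0.16). The higher genes were the homing receptor Ccr7 (1.23 ± 0.26) and Tsc22d3 (0.82 ± 0.18). In 12-4.4m1 islets Il7r fell (-1.87 ± 0.21) and Ccr7 rose (1.21 ± 0.23), and the other 11 did not pass; Klf2 differed by -0.49 ± 0.17 (limma, adjusted p = 0.0828). The list thus held Ccr7 against the direction of Il7r for both TCRs. Klf2 (for 4-8), Pik3ip1 and Tsc22d3 lie outside the 3 smallest p-values of the list and were picked with their values in view.

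Other regulators of resting T cells split as well. In 4-8 islets 4 of 13 passed as higher and 2 as lower, where 5.14% and 2.84% of all genes tested did. Klf3 fell by 2.09 (± 0.19), and Bcl11b was the other lower gene. The antiproliferative gene Btg1 (0.66 ± 0.14) and the repressor Gfi1 (0.77 ± 0.17) rose, with Btg2 and Tob1. In 12-4.4m1 islets Klf3 (-1.09 ± 0.18) fell and Btg1 (0.80 ± 0.15) and Btg2 (0.78 ± 0.18) rose, so that 2 of 12 passed as higher and 1 as lower (4.63% and 2.18% of all genes tested). Effector Treg factors passed as higher in 6 of 11 for each TCR and as lower in 0, where 5.14% (4-8) and 4.63% (12-4.4m1) of all genes tested passed as higher. They included Bhlhe40 (1.66 ± 0.16 and 1.83 ± 0.17), Nfil3 (1.96 ± 0.22 and 1.47 ± 0.22), Irf4 (1.25 ± 0.16 and 0.91 ± 0.18), Tbx21 and Prdm1 in both, Maf for 4-8 and Ikzf3 for 12-4.4m1. Bcl11b, Btg2 and Tob1 for 4-8, Irf4 and Ikzf3 for 12-4.4m1, and Maf, Tbx21 and Prdm1 lie outside the 3 smallest p-values of these lists in at least 1 comparison and were picked with their values in view. Tbx21 and Prdm1 also stand on the list of genes that BACH2 or BCL6 repress, so its counts and those of the effector factors share calls. The heat shock genes given above were higher in the same islet libraries, and their part was not tested.

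Between the TCRs in islets, 6 of 8 genes had lower means in 4-8 than in 12-4.4m1, with a median of -0.32 against -0.00 over all genes tested, and 0 passed. The largest were Tcf7 and Lef1. Tcf7 was 3.66, 4.18 and 3.54 in 4-8 (replicates 1 and 2 and the unnumbered library) and 5.35, 4.90 and 3.62 in 12-4.4m1 replicates 1 to 3. Replicate 3 of 12-4.4m1 lay within the 4-8 range. The difference was -0.83 ± 0.27 (limma, adjusted p = 0.305) and, without that library, -1.33 (adjusted p = 0.000493). The authors' FPKM was 2.15 against 21.8 (Cuffdiff q = 0.200), and their DESeq2 difference was -0.38 (DESeq2, unadjusted p = 0.173). Among libraries with "Treg" in the title, Tcf7 averaged 4.18 in 4-8 (1 library) and 5.13 in 12-4.4m1 (2); among those with "R" it was 3.60 (2) and 3.62 (1). With the title style as a term, the Tcf7 difference was -0.48 (limma, adjusted p = 0.50). Whether it differs between the styles was not tested.

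Lef1 was the only 1 of the 8 whose TCR groups did not overlap in islets, where 11.9% of all genes tested did not. It was 7.52, 7.67 and 7.30 in 4-8 and 8.04, 8.17 and 8.02 in 12-4.4m1. The difference of -0.58 ± 0.19 did not pass (limma, adjusted p = 0.316). It had the same direction within both title styles, 7.67 against 8.10 for "Treg" and 7.41 against 8.02 for "R". Leaving out any 1 library kept it between -0.67 and -0.48, and it passed in 0 of 15 alternatives.

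Id3 in islets was 3.40, 3.30 and 3.24 in 4-8 and 4.02, 3.94 and 3.22 in 12-4.4m1, again with replicate 3 at the 4-8 level. The difference was -0.42 ± 0.18 (limma, adjusted p = 0.652), or -0.67 without replicate 3 (adjusted p = 0.0987), while the authors' FPKM was 6.17 times higher in 12-4.4m1 (Cuffdiff q = 0.330). Its mean normalized count in this table was only 14.0. Id2 was 9.10, 9.14 and 9.36 in 4-8, and 8.64, 8.45 and 9.57 in 12-4.4m1. Within "Treg" titles 4-8 was higher (9.14 against 8.54) and within "R" titles lower (9.23 against 9.57). The pooled difference was 0.32 ± 0.22 (limma, adjusted p = 0.844), and 0.66 without replicate 3 (adjusted p = 0.219).

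The remaining genes did not pass either. Bcl6 was 4.77 to 5.02 in 4-8 and 4.97 to 5.51 in 12-4.4m1 (-0.33 ± 0.19). Satb1 was 7.48 to 7.68 and 7.56 to 8.43 (-0.32 ± 0.21), with the high value in replicate 3, without which the difference was -0.037. Bach2 (0.12 ± 0.18) and Foxo1 (-0.07 ± 0.20) overlapped fully.

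**Figure D4:**
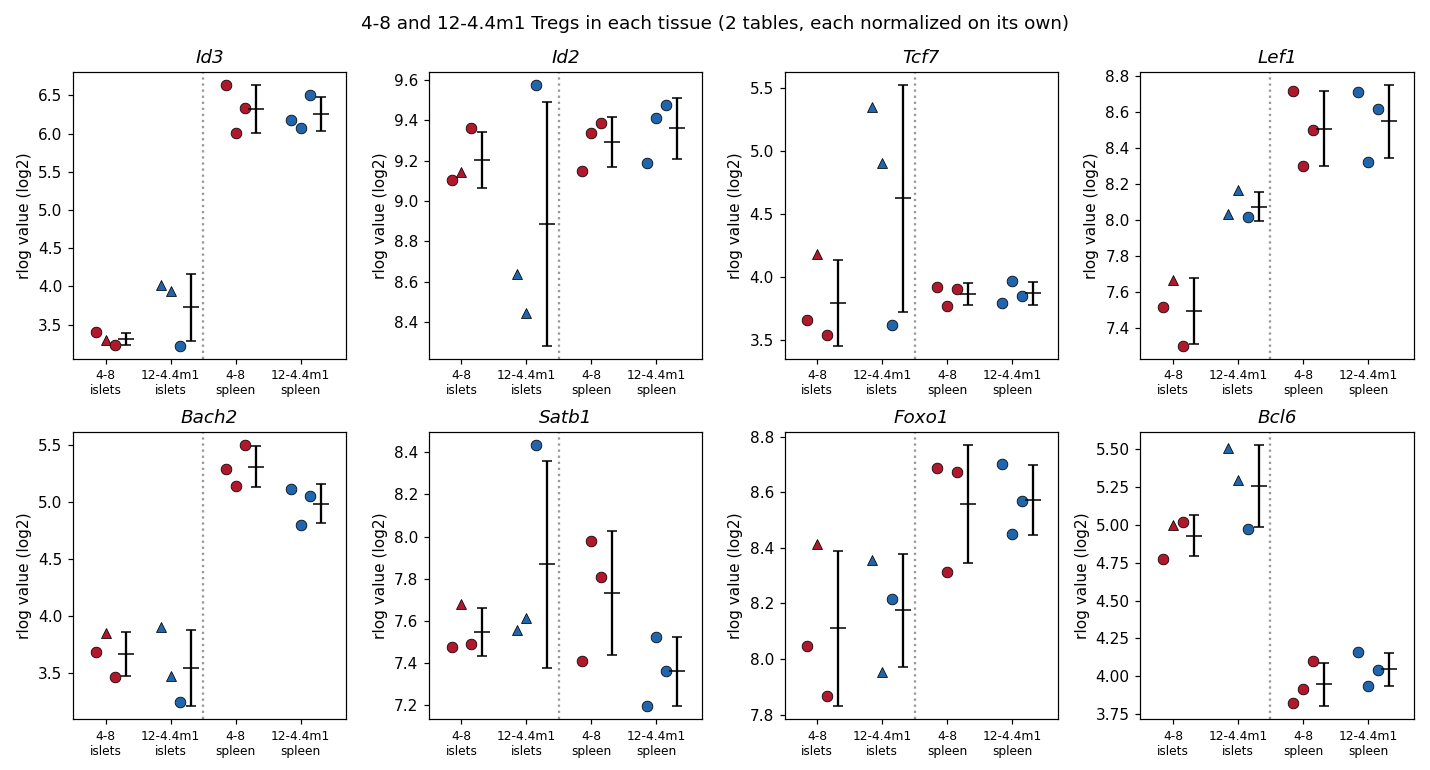
The rlog value (log2, vertical axis) of each gene in every library of the 2 tables that compare the TCRs, islets on the left and spleen on the right of each panel; symbols and bars are as in the plot of the tissue tables. In islets Lef1 is lower in every 4-8 library and Tcf7 is high in 2 of the 3 12-4.4m1 libraries; in spleen the groups overlap for all genes but Bach2.

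In spleen none of the 8 genes differed between the TCRs by an amount that passed the test. The 8 differences ran from -0.10 (Bcl6) to 0.37 (Satb1), with a median of -0.01. Satb1 was 7.41, 7.98 and 7.81 in 4-8 replicates 1 to 3 and 7.20, 7.52 and 7.36 in 12-4.4m1 (0.37 ± 0.14, limma, adjusted p = 0.429). Bach2 was 5.29, 5.14 and 5.50 in 4-8 and 5.11, 4.80 and 5.05 in 12-4.4m1; its groups did not overlap (13.3% of all genes tested did not), and 0.32 ± 0.13 did not pass (adjusted p = 0.448). Id3 differed by 0.07 ± 0.15, with a 95% confidence interval of -0.23 to 0.37, and Tcf7 by -0.00 ± 0.09 (-0.20 to 0.19). Mean normalized counts in the spleen table were 82.1 for Id3 and only 14.6 for Tcf7. Since rlog shrinks low counts by an amount that differs between tables, these intervals are not set against the tissue changes.

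Around the 8 genes, few list genes differed between the TCRs by an amount that passed. Of genes that BACH2 or BCL6 repress, 2 of 7 tested passed as lower in 4-8 in islets and 1 of 8 in spleen. Of effector Treg factors, 0 of 11 tested passed in islets and 1 of 11 in spleen. Of all genes tested, 0.11% passed as lower in islets and 0.22% in spleen. The chemokine receptor Ccr4, a gene repressed by BACH2, was lower in 4-8 than in 12-4.4m1 in islets (-0.96 ± 0.21, limma, adjusted p = 0.0301) and in spleen (-1.09 ± 0.12, adjusted p = 1.67e-05). Il1rl1, the IL-33 receptor ST2, was lower in islets (-0.88 ± 0.20, adjusted p = 0.0429) and missed the threshold in spleen (-0.78 ± 0.19, adjusted p = 0.0752). Rora, an effector Treg factor, was lower in spleen (-1.03 ± 0.13, adjusted p = 6.21e-05) and did not pass in islets (-0.86 ± 0.22, adjusted p = 0.101). None of the genes tested on the ID, TCF/LEF, FOXO, partner or other resting lists passed in either tissue.

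The genes most alike in pattern were ranked by their lowest Pearson correlation over the 4 tables, with 6 libraries in each, among 7928 genes. The tables share libraries, so these are descriptions. Id3 went with Zfp788 (lowest r 0.942), Cep295 (0.902) and Bahd1 (0.854), and Id2 with Arpc4 (0.872), Rrm2 (0.861) and Ilk (0.845). For Tcf7 the values were lower, 0.786 for Skiv2l2, 0.768 for Heatr3 and 0.746 for Dctn4. The closest genes to Lef1, Bach2, Satb1, Foxo1 and Bcl6 were 2610001J05Rik (0.816), Dnajc5 (0.844), Afg3l2 (0.781), Ccdc117 (0.840) and Tagap (0.804). Between members, Id3 and Id2 ran opposite in the islet table (r = -0.941) and the 4-8 tissue table (-0.961), with -0.765 in the 12-4.4m1 tissue table and -0.203 in spleen.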

How the data were processed

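RNA was measured in sorted Tregs, 12 libraries in 4 groups of 3; groups follow the sample titles. Per the labels, cells were lysed in Triton X-100 and RNA was reverse transcribed, amplified and tagmented with Nextera XT. Per the submitters' processing notes, the tools were TopHat 1.0.0, Cufflinks, STAR 1.1.0, DESeq, DESeq2 1.1.0 and mm10 (GRCm38), without roles. Read depth is not given in the sources used here. For each of 4 comparisons the authors deposited rlog values on a log2 scale per library. The authors' DESeq2 results, as deposited and per the file headers, hold a mean normalized count (signal), a log2 fold change, a Wald statistic (score), a p-value and an adjusted p. Their Cuffdiff table, deposited with 1 FPKM value per group, holds a p-value and a q-value.

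Each table was normalized on its own and fitted alone with limma 3.58.1 in R 4.3.3 (lmFit, eBayes with trend, 2-sided, Benjamini-Hochberg over all genes tested). Genes with a mean normalized count of at least 10 were tested and passed at an adjusted p of 0.05. Differences are 4-8 minus 12-4.4m1 or islets minus spleen, with the SE of the fit. An exact permutation of 3 against 3 libraries cannot go below 0.1. The authors' fold signs were turned to match. Rows of repeated symbols, 4 per table, were left out; 0 columns of library values were. Sums of lists are of 2 to the power of the rlog value. P-values measure only the spread between libraries. For the unnumbered column, deviations of 8168 genes from the group mean were correlated with those of the islet 4-8 libraries of the tissue table. The r was 0.992 with replicate 3, -0.332 with replicate 1 and -0.697 with replicate 2. By its values the column thus matched replicate 3. For spleen replicate 2 of both TCRs the sample description points to the wrong TCR's tissue table; titles were used.

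The 8 genes and the 16 lists around them were chosen with earlier results of these data known. Named list genes are up to 3 per list and comparison with the smallest p, beside those the text says were named with their values in view, marker genes only where they moved with a result, and the 3 most alike genes per member; some list genes are not reported here. Alternatives were other filters, eBayes without trend, median centring, the authors' tests, a replicate block, title style or Xist as a term, and leaving out libraries. The fit was tested on simulated data with known differences.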

Additional observations from a re-analysis of the deposited data

How the results depend on the processing

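Of 450 values of single genes under alternatives, 403 kept direction and side of the threshold, 16 lost and 9 gained a call, and 22 reversed. Id3 for 4-8 (13 alternatives) and Satb1 for 12-4.4m1 (15) passed in all of theirs; the cause of changes was not tested.

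Genes called between the TCRs in islets numbered 30, and 15 with a minimum count of 50, 57 in Cuffdiff, 53 with a replicate block over the 2 numbered pairs (1 of the 8 genes, Tcf7, -1.20), 52 with title style and 50 with Xist as a term; without 1 library they ran from 9 to 44, with 0 to 1 of the 8. In spleen 39 became 17 without trend, 21 in DESeq2, 84 in Cuffdiff, 78 with a replicate block, 11 without both libraries numbered 2 and 19 with Xist; without 1 library 14 to 56. For 4-8 tissue 717 became 1142 in Cuffdiff and 306 to 1211 without 1 library; the 8 genes called fell from 2 to 1 with no filter, a minimum of 50 (which drops Id3), a replicate block (Id2 adjusted p 0.0882) or Xist, and were 1 to 2 without 1 library. For 12-4.4m1 tissue 575 became 922 in Cuffdiff and 288 to 610 without 1 library; of the 8, 1 passed with a minimum of 50 or in DESeq2, and 1 to 3 without 1 library. Same-numbered libraries correlated in their deviations at r from -0.118 to 0.127. In spleen all 3 same-numbered pairs were positive (0.120, 0.086 and 0.075) and each library correlated best with its own number, a hint from the data; not every pair passed 0.1, and numbers were not taken as pairs; with the block Tcf7 passed for 12-4.4m1 tissue (adjusted p 0.0222).

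Reversed values were as follows. In islets Foxo1 became 0.075 (block), 0.056 (without the unnumbered library), 0.025 (without 12-4.4m1 replicate 1) and 0.0012 (title style), and Bach2 -0.022 (without 12-4.4m1 replicate 3; up to 0.30 without another). In spleen, without 4-8 replicate 1 Id3 was -0.083 and Id2 0.0037; without 4-8 replicate 2 Tcf7 was 0.045, Lef1 0.060 and Foxo1 0.107; without 12-4.4m1 replicate 1 Lef1 was 0.038 and Foxo1 0.048; without 12-4.4m1 replicate 2 Id3 was -0.018 and Tcf7 0.044; without both numbered 2 Tcf7 was 0.093 and Foxo1 0.045; with Xist Id2 was 0.132 and Tcf7 0.049; and Lef1 was 0.015 in Cuffdiff. The other ends of these ranges without 1 library were 0.23 (Id3), -0.15 (Id2), -0.043 (Tcf7), -0.16 (Lef1) and -0.080 (Foxo1). For 12-4.4m1 tissue, without islet replicate 3 Id2 was -0.22 and Bach2 0.022 (without others up to 0.33 and down to -0.38), and with title style Tcf7 was -0.36. The Xist terms for islets and tissues were chosen after seeing the data. Depth per library is not known, and Id3, Tcf7, Bach2 and Bcl6, with mean counts of 12.2 to 82.1, were least well covered among the 8.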
